A study of Homo sapiens with 14 samples.

Results

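The kinetochore and spindle checkpoint genes described here are 43 genes, taken by symbol from a list of proteins that build the centromere and kinetochore or run the spindle assembly checkpoint, out of the 27819 genes shared by the 4 count tables. They were divided by role into 19 inner centromere genes, 15 outer kinetochore genes and 9 checkpoint genes. RNA-seq had been performed on CWR22Rv1, a cell line from human prostate cancer, after 72 h of treatment. There were 3 libraries of cells that received only DMSO, the vehicle, 3 of cells given Fucotrim I at a dose of 30 μM, 2 for Fucotrim II at 60 μM, 3 for SGN-2FF at 100 μM and 3 for P-SiaFNEtoc at 2 μM. Fucotrim I, Fucotrim II and SGN-2FF are metabolic inhibitors of fucosylation, the addition of fucose to glycans, and P-SiaFNEtoc is an inhibitor of sialylation, the addition of sialic acid. The labels call the libraries of a group biological replicates. The study's methods state 3 biological repeats per condition, while the samples available here held 2 for Fucotrim II, and both were analysed. The cells are of 1 line in every group, so no donor or genotype differs between the groups. The inhibitors were used at different doses and share the 3 DMSO libraries, so their values are set side by side and differences between inhibitors were not tested.

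The libraries held between 15398797 and 17689717 counts on shared genes with DMSO, between 12553094 and 14947100 with Fucotrim I, 18183854 and 19099194 with Fucotrim II, between 12943538 and 16569554 with SGN-2FF, and between 15424432 and 19981314 with P-SiaFNEtoc. The 7 luminal prostate markers KLK3, KLK2, HOXB13, TMPRSS2, FOLH1, KRT8 and KRT18 were all expressed, and their levels summed to between 1354 and 1438 CPM (counts per 1000000 counts of the library after scaling) in the DMSO libraries. Of these, 6 were higher with P-SiaFNEtoc and 7 with each of the other inhibitors. Of all genes tested, 9.02% were higher with P-SiaFNEtoc, and 21.6%, 25.6% and 11.5% with Fucotrim I, Fucotrim II and SGN-2FF. The 9 markers of immune, endothelial, stromal and basal cells (PTPRC, CD3E, CD68, PECAM1, COL1A1, DCN, ACTA2, KRT5 and TP63) summed to between 24.2 and 38.9 CPM over all 14 libraries, and 3 of them passed the filter on low counts. Each of those 3 was called higher with 1 inhibitor, ACTA2 with Fucotrim I (0.76, edgeR adjusted p = 0.0148), COL1A1 with Fucotrim II (0.59, adjusted p = 0.00185) and CD68 with SGN-2FF (0.46, adjusted p = 0.0165), as log2 fold changes.

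The kinetochore is the protein structure on each chromosome that binds the microtubules of the mitotic spindle. Its inner part sits on the centromere through the constitutive centromere network, its outer part holds the microtubules through the NDC80, MIS12 and KNL1 complexes, and the spindle assembly checkpoint holds back anaphase until every kinetochore is attached. Many of these genes are transcribed periodically and reach their highest levels in the G2 and M phases, under promoters with CCAAT boxes and the cell cycle homology region (CHR), an element bound by the DREAM and MuvB complexes.

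Among members with a matched promoter, CENPE, BUB1 and SGO2 fell most under Fucotrim II, and DSN1 and CENPN changed least. Their promoters are shown to let the sequences be set beside the values of these genes. KNL1 fell more than SGO2 (log2 fold changes of -1.36 and -1.34) but had no matched promoter. Each run is the 150 bases directly upstream of the RefSeq transcription start in GRCh38.p14, on the strand of the gene, and capitals mark a CCAAT box, read as CCAAT or, on the other strand, as ATTGG.
CENPE, chr4:103198344-103198493, minus strand: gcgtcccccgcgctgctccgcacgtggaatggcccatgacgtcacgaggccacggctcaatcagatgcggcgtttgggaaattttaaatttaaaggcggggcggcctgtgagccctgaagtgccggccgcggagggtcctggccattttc
BUB1, chr2:110678064-110678213, minus strand: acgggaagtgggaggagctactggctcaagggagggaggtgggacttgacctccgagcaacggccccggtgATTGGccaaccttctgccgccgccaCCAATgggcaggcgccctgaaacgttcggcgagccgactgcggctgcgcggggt
SGO2, chr2:200525992-200526141, plus strand: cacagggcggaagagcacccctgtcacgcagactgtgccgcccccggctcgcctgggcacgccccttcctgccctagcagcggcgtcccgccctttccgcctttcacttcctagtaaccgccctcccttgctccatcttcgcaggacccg
DSN1, chr20:36773764-36773913, minus strand: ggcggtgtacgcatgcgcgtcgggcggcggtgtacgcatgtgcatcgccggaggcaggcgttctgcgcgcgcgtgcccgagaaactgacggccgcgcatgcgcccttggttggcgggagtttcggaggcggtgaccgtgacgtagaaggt
CENPN, chr16:81007064-81007213, plus strand: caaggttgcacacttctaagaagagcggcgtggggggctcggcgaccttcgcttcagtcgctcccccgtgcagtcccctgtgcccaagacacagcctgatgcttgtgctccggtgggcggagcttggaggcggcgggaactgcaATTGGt
BUB1 held CCAAT boxes 54 and 79 bases upstream of its start and CENPN 1 at 6 bases, while no box lay in the printed bases of CENPE, SGO2 or DSN1. SGO2 has a CCAAT box outside the printed bases, in the longer window searched, and CENPE and DSN1 have none there. The CHR, searched as TTTGAA and TTCGAA on both strands, lay just downstream of the start in BUB1 and CENPN, and is shown in capitals within 30 bases.
BUB1, chr2:110678045-110678074, minus strand: ctgcgcggggtaTTCGAAtcggcggcggct
CENPN, chr16:81007205-81007234, plus strand: gcaattggtggcTTTGAAggcgcggcgagc
Among the members shown here, ones with and without these letters were found both among the largest falls and among the smallest changes. These few were picked for their changes, and the values of all matched members with and without the letters are given further below. SGO2 has 2 starts in the table, of which 1 is shown.

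A promoter from 250 bases before to 50 bases after the start was matched for 35 of the 43 members, and none was matched for CENPH, CENPL, CENPM, KNL1, KNTC1, BUB3, TTK and BIRC5. A CHR was found in 18 of the 35, or 51.4%, against 19.5% of the 27305 genes in the table and 15.1% of the 11526 of these that were tested. A CCAAT box was found in 23 (65.7%, against 39.7% of all genes and 43% of tested genes), and both letters together in 12 (34.3%, against 7.85% and 6.36%). The E2F site, searched as TTTGGCGC, TTTCCCGC, TTTCGCGC and TTTGCCGC on both strands, was found in 2 members, 5.71% against 3.99% of all genes and 6.43% of tested genes. None of these letters contains another, and a match is a string of letters in the window, not a site shown to be bound.

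With Fucotrim I, 29 of the 41 members that could be tested were lower than in DMSO at an adjusted p-value under 0.05 (quasi-likelihood test of edgeR, Benjamini-Hochberg adjusted over all genes), 3 were higher and 9 were not called. Among all 14188 genes tested, 22.1% were lower and 21.6% higher. With Fucotrim II, 32 of 41 were lower, 2 were higher and 7 were not called, against 25.7% lower and 25.6% higher among 14617 genes. With P-SiaFNEtoc, 21 of 41 were lower, against 7.33% of 14259 genes, and no member was higher in edgeR, limma-voom or DESeq2, against 9.02% of genes. At an unadjusted p-value under 0.05 from edgeR, 1 member, PMF1, was higher with P-SiaFNEtoc. With SGN-2FF, 12 of 41 were lower and 3 higher, against 9.08% and 11.5% of 14312 genes. The other 2 members, SPC25 and SKA1, failed the filter on low counts and were not tested.

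The median log2 fold change of the 41 members was lowest under Fucotrim II, at -0.62, and came to -0.34 for Fucotrim I, -0.17 for P-SiaFNEtoc and -0.10 for SGN-2FF. Over all genes tested, the medians lay between 0.00 and 0.01. The fall exceeded 0.58 on the log2 scale for 3 members with Fucotrim I (CENPE, SGO1 and BUB1) and for 21 with Fucotrim II, and for no member with SGN-2FF or P-SiaFNEtoc. The share of all genes tested beyond this threshold was not counted, so whether these numbers differ from it is not known. The counts of lower members with SGN-2FF and P-SiaFNEtoc moved most between the alternatives. With SGN-2FF, 3 members were lower without SGN-2FF replicate 2, 7 without SGN-2FF replicate 1 and 6 when all 14 libraries were fitted together, and with P-SiaFNEtoc, 12 were lower in that common fit.

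**Figure D1:**
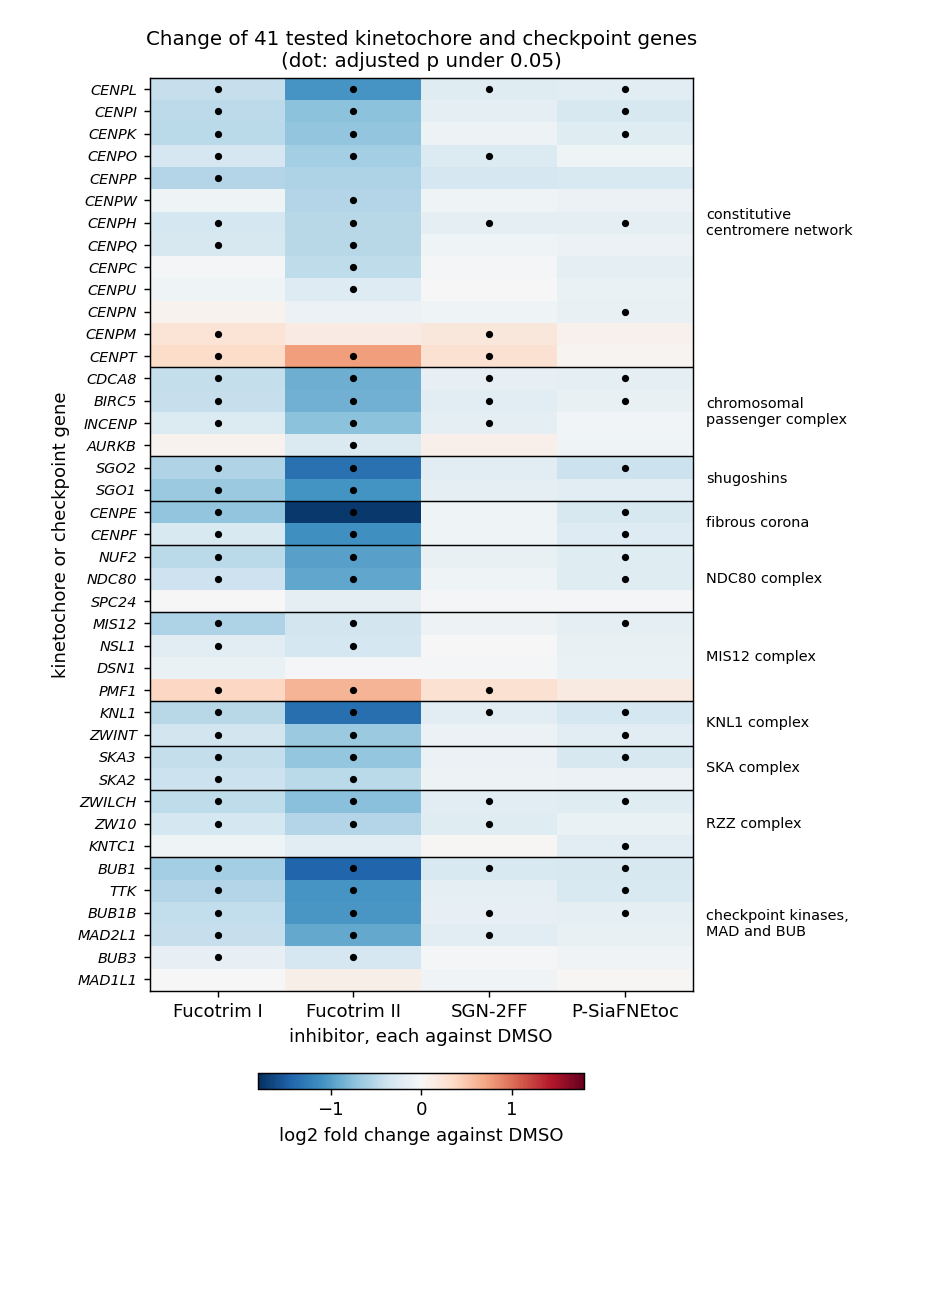
Heat map of the log2 fold change against DMSO (colour) of the 41 tested genes (rows, grouped by complex) with each inhibitor (columns), where a dot marks an adjusted p-value under 0.05 in edgeR. Most rows are blue with Fucotrim I and Fucotrim II, down to -1.73 for CENPE, and the rows of CENPT, PMF1 and CENPM are the ones with rises that were called.

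The same shift was seen in each library. The summed level of the 41 genes was 3293, 3370 and 3295 CPM in the DMSO libraries, 2701, 2858 and 2764 CPM with Fucotrim I, 2292 and 2242 CPM with Fucotrim II, 3059, 3088 and 3151 CPM with SGN-2FF, and 2967, 2941 and 3008 CPM with P-SiaFNEtoc. Every treated library was below every DMSO library in this sum. All treated libraries were below all DMSO libraries for 31 members with Fucotrim I, 34 with Fucotrim II, 18 with SGN-2FF and 25 with P-SiaFNEtoc, while 27.4%, 33.8%, 19.4% and 17.2% of all genes tested met this condition. The median log2 ratio of the members to the DMSO mean ranged from -0.40 to -0.28 over the Fucotrim I libraries, was -0.62 and -0.61 in the Fucotrim II libraries, and ranged from -0.15 to -0.06 with SGN-2FF and from -0.19 to -0.15 with P-SiaFNEtoc. The third SGN-2FF library stood nearest to DMSO, with 20 members below every DMSO library against 32 and 30 in the others of its group.

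**Figure D2:**
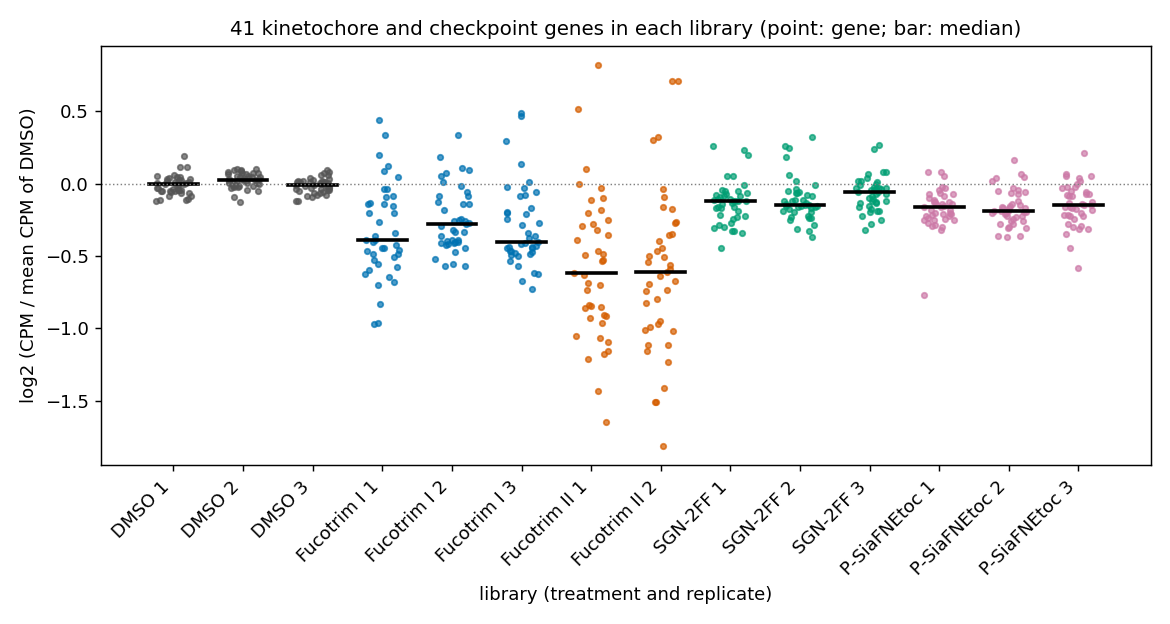
Log2 ratio of the CPM of each of the 41 tested genes (points) to its mean in DMSO, for each of the 14 libraries (horizontal axis), with the median as a bar. The medians of the Fucotrim II libraries are lowest, at -0.62 and -0.61, and those of the SGN-2FF and P-SiaFNEtoc libraries lie between -0.19 and -0.06.

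Most genes of proliferation moved in the same direction in these libraries. Of MKI67, TOP2A, PCNA, CDK1, CCNB1, CCNB2, CCNA2, MCM2, MCM5 and RRM2, all 10 were lower with Fucotrim I, 10 with Fucotrim II, 5 with SGN-2FF and 8 with P-SiaFNEtoc. These shares of 100%, 100%, 50% and 80% stand against 22.1%, 25.7%, 9.08% and 7.33% of all genes tested. The median log2 fold changes of the 10 genes were -0.29, -0.81, -0.12 and -0.17 in the same order. With P-SiaFNEtoc the highest single value was 0.05, which was not called. The summed level of the 10 genes was between 2659 and 2719 CPM in DMSO and between 1585 and 1653 CPM with Fucotrim II. It was between 2192 and 2239 CPM with Fucotrim I, 2391 and 2436 CPM with SGN-2FF, and 2364 and 2432 CPM with P-SiaFNEtoc. In bulk samples, fewer cells in G2 and M phase and less RNA per cell cannot be told apart. The part of cell cycle position in the values given here was not tested.

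The 19 inner centromere genes comprise 13 genes of the constitutive centromere network, 4 of the chromosomal passenger complex and the 2 shugoshins. Of these, 12 were lower with Fucotrim I, 15 with Fucotrim II, 6 with SGN-2FF and 8 with P-SiaFNEtoc, with median log2 fold changes of -0.31, -0.55, -0.15 and -0.13. The lower shares were 63.2%, 79.0%, 31.6% and 42.1%, against 22.1%, 25.7%, 9.08% and 7.33% of all genes tested. The constitutive centromere network, which bridges centromeric chromatin and the outer kinetochore, held genes of both directions. Here 7 of its 13 genes were lower and 2 higher with Fucotrim I, 9 were lower and 1 higher with Fucotrim II, 3 were lower and 2 higher with SGN-2FF, and 5 were lower with P-SiaFNEtoc. The lower shares were 53.85%, 69.23%, 23.08% and 38.46%, against 22.1%, 25.7%, 9.08% and 7.33% of all genes tested. Of all genes tested, 21.6%, 25.6% and 11.5% were higher with Fucotrim I, Fucotrim II and SGN-2FF, so the few rises are not read as a trait of the network.

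CENPL, a subunit of the CENPL and CENPN pair that reads the centromeric nucleosome, had the largest fall of the network under Fucotrim II. Its level was 27.8, 27.01 and 26.00 CPM in the DMSO libraries, 21.01, 20.5 and 19.1 CPM with Fucotrim I, 12.1 and 13.7 CPM with Fucotrim II, 22.1, 23.1 and 23.6 CPM with SGN-2FF and 24.7, 23.4 and 21.7 CPM with P-SiaFNEtoc. No treated library of any inhibitor reached the lowest DMSO library. The log2 fold changes, given here and for the genes that follow in the order Fucotrim I, Fucotrim II, SGN-2FF and P-SiaFNEtoc unless stated, were -0.41, -1.07, -0.22 and -0.21, with edgeR adjusted p-values of 0.000276, 3.59e-05, 0.0246 and 0.0406. The call with SGN-2FF was lost without DMSO replicate 1 and without SGN-2FF replicates 1 or 2 (up to 0.0978 in edgeR), and the call with P-SiaFNEtoc was lost without any of the 3 DMSO libraries or without P-SiaFNEtoc replicates 2 or 3 (up to 0.157). CENPN, its partner, had the smallest change of the network with Fucotrim II. It was at 198, 200 and 192 CPM in DMSO, 209, 208 and 199 CPM with Fucotrim I, 182 and 184 CPM with Fucotrim II, 186, 182 and 191 CPM with SGN-2FF and 179, 173 and 186 CPM with P-SiaFNEtoc. With Fucotrim I the libraries overlapped those of DMSO, and with the other inhibitors they lay below them by a small margin. Its log2 fold changes were 0.06, -0.11, -0.07 and -0.13, and the last of them was called (edgeR adjusted p = 0.0232) but was lost without DMSO replicates 1 or 2 or P-SiaFNEtoc replicates 1 or 2 (up to 0.158). Of the exon bases of CENPN, 12.6% are shared with another annotated gene on the same strand.

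CENPH, a subunit that links the inner centromere to the outer kinetochore together with CENPI and CENPK, was lower with all 4 inhibitors. It was at 117, 111 and 110 CPM in DMSO and at 84.3, 94.2 and 92.4 CPM with Fucotrim I, 78.2 and 81.8 CPM with Fucotrim II, 97.3, 96.2 and 104 CPM with SGN-2FF and 102, 97.3 and 99.8 CPM with P-SiaFNEtoc, and no treated library overlapped DMSO. In log2 terms CENPH changed by -0.32, -0.50, -0.18 and -0.17, and the calls with SGN-2FF and P-SiaFNEtoc were lost in edgeR without replicate 2 of the inhibitor concerned (adjusted p = 0.0749 and 0.0554). CENPI and CENPK were lower with Fucotrim I (-0.47 and -0.48), Fucotrim II (-0.74 and -0.71) and P-SiaFNEtoc (-0.29 and -0.22), where the CENPK call was lost without DMSO replicate 2 (edgeR adjusted p = 0.0834). CENPO, CENPP, CENPQ and CENPU belong to another subcomplex of the network. With Fucotrim II, log2 fold changes were -0.62, -0.55, -0.50 and -0.23, and 3 of the 4 were called. CENPP was not, and it had the lowest counts of all tested members, between 29 and 75 in any library. Its call with Fucotrim I was lost without DMSO replicate 1 (edgeR adjusted p = 0.147) and without Fucotrim I replicates 2 or 3. The call of CENPQ with Fucotrim I was lost without DMSO replicates 2 or 3 or Fucotrim I replicates 1 or 3 (up to 0.102), that of CENPU with Fucotrim II without DMSO replicate 2 (0.0677), and that of CENPO with SGN-2FF without DMSO replicate 3 or SGN-2FF replicate 1 (up to 0.0536). On the opposite strand, IPPK and an unnamed gene together overlap 43.2% of the exon bases of CENPP, ADCY3 and PTRHD1 together overlap 31.6% of those of CENPO, and the strand setting of the counting is not given in the sources used here. CENPC, which binds the centromeric nucleosome directly, was called with Fucotrim II, at -0.45, and had -0.03 with Fucotrim I, -0.04 with SGN-2FF and -0.17 with P-SiaFNEtoc. CENPW, the histone fold partner of CENPT, was also called with Fucotrim II (-0.52), with -0.08, -0.07 and -0.11 for the other inhibitors.

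CENPT and CENPM were higher. CENPT (hg38 chromosome 16 from 67828157 to 67847811) carries a histone fold at the centromere and a long arm that recruits the NDC80 complex. Its level was 54.3, 62.3 and 60.2 CPM in DMSO, 67.4, 74.2 and 81.3 CPM with Fucotrim I, 104 and 96.2 CPM with Fucotrim II, 70.5, 69.9 and 70.7 CPM with SGN-2FF and 61.2, 59.6 and 61.1 CPM with P-SiaFNEtoc. With the fucosylation inhibitors every library was above every DMSO library, and with P-SiaFNEtoc the groups overlapped. CENPT rose with Fucotrim II by a log2 fold change of 0.76 ± 0.08 (standard error), with Fucotrim I by 0.34 ± 0.07 and with SGN-2FF by 0.27 ± 0.05, at edgeR adjusted p-values of 6.90e-05, 0.000630 and 0.000718. The value with P-SiaFNEtoc was 0.05 (edgeR adjusted p = 0.608) and changed sign without DMSO replicate 1 (-0.01). On the opposite strand, TSNAXIP1, THAP11 and NUTF2 overlap 20.2% of its exon bases. CENPM, a partner of CENPH, CENPI and CENPK, was at 43.3, 45.4 and 47.3 CPM in DMSO, 57.1, 48.4 and 55.6 CPM with Fucotrim I, 44.3 and 56.7 CPM with Fucotrim II, 53.3, 54.1 and 47.9 CPM with SGN-2FF and 47.9, 47.4 and 47.01 CPM with P-SiaFNEtoc. The Fucotrim II libraries fell on either side of the highest DMSO library, while those of Fucotrim I and SGN-2FF all lay above it. The log2 fold changes were 0.25, 0.15, 0.21 and 0.07, and those with Fucotrim I and SGN-2FF were called (edgeR adjusted p = 0.00723 and 0.0127). The call with SGN-2FF was lost without DMSO replicate 1 or SGN-2FF replicates 1 or 2 (up to 0.114), and the value with Fucotrim II was -0.04 without replicate 2 of that inhibitor.

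The chromosomal passenger complex holds the kinase AURKB with its activator INCENP and the targeting subunits BIRC5 (survivin) and CDCA8 (borealin), and corrects wrong attachments. AURKB had the smallest change of the complex with Fucotrim II. It was at 86.2, 90.4 and 90.3 CPM in DMSO, 91.7, 87.9 and 97.9 CPM with Fucotrim I, 69.7 and 79.6 CPM with Fucotrim II, 92.2, 101 and 88.97 CPM with SGN-2FF and 79.95, 81.8 and 89.9 CPM with P-SiaFNEtoc. Only the Fucotrim II libraries were all below DMSO, with a log2 fold change of -0.26 (edgeR adjusted p = 0.0156). That call was lost without DMSO replicates 2 or 3 (up to 0.0690), and the values with Fucotrim I, SGN-2FF and P-SiaFNEtoc were 0.06, 0.10 and -0.08. CDCA8 was at 72.7, 76.98 and 74.2 CPM in DMSO, 53.9, 55.5 and 56.5 CPM with Fucotrim I, 39.6 and 42.1 CPM with Fucotrim II, 66.4, 66.9 and 66.9 CPM with SGN-2FF and 61.1, 63.6 and 72.9 CPM with P-SiaFNEtoc. The third P-SiaFNEtoc library exceeded the lowest DMSO library, and all others treated lay below it. CDCA8 fell with each inhibitor (-0.43, -0.87, -0.15 and -0.18), as did BIRC5 (-0.42, -0.86, -0.19 and -0.13). The CDCA8 calls were lost with SGN-2FF without DMSO replicates 2 or 3 or SGN-2FF replicates 1 or 2 (up to 0.0939) and with P-SiaFNEtoc without DMSO replicates 2 or 3 or P-SiaFNEtoc replicates 1 or 2 (up to 0.156). The BIRC5 call with P-SiaFNEtoc was lost without DMSO replicates 1 or 3 or P-SiaFNEtoc replicates 1 or 2 (up to 0.155). In the fit of all 14 libraries, the BIRC5 calls with SGN-2FF and P-SiaFNEtoc were both lost (edgeR adjusted p = 0.0718 and 0.276). BIRC5 was at 207, 197 and 205 CPM in DMSO and at 96.9 and 127 CPM in the Fucotrim II libraries, which differed from each other by more than the DMSO libraries did but remained below them. INCENP was lower with Fucotrim I (-0.25), Fucotrim II (-0.75) and SGN-2FF (-0.18), where the call was lost without DMSO replicates 1 or 3 or SGN-2FF replicates 2 or 3 (up to 0.0881), and had -0.04 with P-SiaFNEtoc.

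The shugoshins protect the cohesin between sister centromeres. SGO2 (hg38 chromosome 2 from 200510008 to 200584096) was at 30.3, 31.6 and 28.4 CPM in DMSO, 16.9, 22.8 and 22.5 CPM with Fucotrim I, 13.3 and 10.6 CPM with Fucotrim II, 25.4, 23.2 and 30.5 CPM with SGN-2FF and 24.4, 24.3 and 20.1 CPM with P-SiaFNEtoc. The SGN-2FF libraries overlapped DMSO and the others did not. The log2 fold change of SGO2 was -1.34 ± 0.11 for Fucotrim II, -0.54 ± 0.10 for Fucotrim I and -0.38 ± 0.07 for P-SiaFNEtoc (± standard error, edgeR adjusted p = 3.02e-05, 0.000134 and 0.000491), and the last is the largest fall of any member with P-SiaFNEtoc. SGO1 was at 21.5, 19.8 and 18.2 CPM in DMSO, 10.2, 14.9 and 11.98 CPM with Fucotrim I and 10.4 and 8.43 CPM with Fucotrim II, and at 16.1, 18.2 and 18.5 and 18.7, 16.02 and 16.7 CPM with SGN-2FF and P-SiaFNEtoc. Its libraries were clear of DMSO with both Fucotrim inhibitors and overlapped it with the other two. The log2 fold changes of SGO1 were -0.67, -1.08, -0.16 and -0.20, of which the first and second were called, and 15.8% of its exon bases lie opposite SGO1-AS1.

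Of the 15 outer kinetochore genes 13 could be tested, and 10 were lower with Fucotrim I, 10 with Fucotrim II, 1 with SGN-2FF and 8 with P-SiaFNEtoc. Their median log2 fold changes were -0.38, -0.66, -0.07 and -0.20. The gene that was lower with SGN-2FF was KNL1, which is 7.69% of the 13, against 9.08% of all genes tested. With Fucotrim I, Fucotrim II and P-SiaFNEtoc the lower shares were 76.9%, 76.9% and 61.5%, against 22.1%, 25.7% and 7.33% of all genes tested.

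CENPE (NCBI gene 1062, hg38 chromosome 4 from 103105349 to 103198445) encodes the kinesin of the fibrous corona that carries chromosomes towards the spindle equator. It was at 78.98, 82.8 and 75.9 CPM in DMSO, 40.5, 53.5 and 51.5 CPM with Fucotrim I, 25.3 and 22.6 CPM with Fucotrim II, 74.5, 70.7 and 79.8 CPM with SGN-2FF and 66.8, 65.2 and 62.3 CPM with P-SiaFNEtoc. The SGN-2FF libraries overlapped DMSO, and those of the other inhibitors were all lower. The mean fell from 79.2 ± 3.41 CPM (SD, n = 3) to 23.9 ± 1.95 CPM (SD, n = 2) with Fucotrim II, a log2 fold change of -1.73 ± 0.08 (standard error, edgeR adjusted p = 3.08e-06), the largest of any member with that inhibitor. With Fucotrim I it was -0.71 ± 0.08 and with P-SiaFNEtoc -0.29 ± 0.05 (edgeR adjusted p = 1.88e-06 and 0.000137), while SGN-2FF gave -0.07 (adjusted p = 0.362). CENPF, a large coiled-coil protein of the same layer, was at 237, 245 and 244 CPM in DMSO and at 183, 213 and 204 CPM with Fucotrim I, 117 and 109 CPM with Fucotrim II, 222, 232 and 230 CPM with SGN-2FF and 211, 204 and 200 CPM with P-SiaFNEtoc. All treated libraries lay below all DMSO libraries. The log2 fold change was -0.27, -1.11, -0.07 and -0.24, and that with SGN-2FF did not pass the test (edgeR adjusted p = 0.172).

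The NDC80 complex is the main microtubule coupler, and its 4 subunits are NDC80, NUF2, SPC24 and SPC25. NUF2 was at 92.7, 97.04 and 87.4 CPM in DMSO, 56.9, 73.2 and 68.3 CPM with Fucotrim I, 51.2 and 42.6 CPM with Fucotrim II, 82.7, 80.6 and 87.9 CPM with SGN-2FF and 78.9, 77.3 and 81.5 CPM with P-SiaFNEtoc. The SGN-2FF libraries reached the lowest DMSO library and the others did not. NUF2 and NDC80 had log2 fold changes of -0.48 and -0.38 with Fucotrim I, -0.98 and -0.94 with Fucotrim II, and -0.22 and -0.22 with P-SiaFNEtoc, all called, against -0.13 and -0.07 with SGN-2FF. The NUF2 call with P-SiaFNEtoc was lost in the fit of all 14 libraries (edgeR adjusted p = 0.0810). SPC24, which ties the complex to the inner layers, was at 69.1, 70.3 and 75.1 CPM in DMSO, 69.7, 72.1 and 70.4 CPM with Fucotrim I, 58.3 and 69.5 CPM with Fucotrim II, 67.6, 72.3 and 69.97 CPM with SGN-2FF and 69.4, 68.6 and 71.3 CPM with P-SiaFNEtoc. The groups overlapped with each inhibitor, and the log2 fold changes of -0.01, -0.17, -0.02 and -0.03 were not called. SPC25 was listed at 0 to 2 counts in every library, although its exons share no base with another annotated gene, and it was not tested. Whether its transcripts were scarce or their reads were not assigned to it was not tested.

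The MIS12 complex, the platform of the outer kinetochore, held members that fell, rose and did not pass the test. PMF1 was higher, and it was at 26.2, 28.6 and 30.3 CPM in DMSO, 38.5, 32.2 and 39.7 CPM with Fucotrim I, 40.6 and 46.3 CPM with Fucotrim II, 32.5, 35.5 and 33.4 CPM with SGN-2FF and 30.02, 31.7 and 32.9 CPM with P-SiaFNEtoc. Every library of the fucosylation inhibitors was above every DMSO library, and with P-SiaFNEtoc the lowest fell just under the highest of DMSO. Its log2 fold changes were 0.38 ± 0.08, 0.61 ± 0.09, 0.27 ± 0.07 and 0.16 ± 0.07 (standard error), with edgeR adjusted p-values of 0.00112, 0.000507, 0.00553 and 0.109, and the call with SGN-2FF was lost without DMSO replicate 1 or SGN-2FF replicate 2 (up to 0.0655). PMF1 shares 23.3% of its exon bases on the same strand with the readthrough gene PMF1-BGLAP, so its counts are uncertain. The share of its reads that this concerns was not tested. DSN1 changed least of all members with Fucotrim II, at 61.98, 64.2 and 57.5 CPM in DMSO and 65.6 and 54.2 CPM with Fucotrim II, with 57.5, 57.7 and 53.5 CPM with Fucotrim I, 59.4, 58.7 and 59.8 CPM with SGN-2FF and 53.1, 55.5 and 60.2 CPM with P-SiaFNEtoc. The groups overlapped with each inhibitor, and its log2 fold changes lay between -0.12 and -0.04. MIS12 was lower with Fucotrim I (-0.55), Fucotrim II (-0.32) and P-SiaFNEtoc (-0.18), and NSL1 with Fucotrim I (-0.19) and Fucotrim II (-0.32). The MIS12 call with P-SiaFNEtoc was lost without DMSO replicates 2 or 3 or P-SiaFNEtoc replicates 2 or 3 (up to 0.216 in edgeR). MIS12 was at 45.7, 49.02 and 48.1 CPM in DMSO, 29.7, 36.3 and 31.1 CPM with Fucotrim I and 41.3 and 35.01 CPM with Fucotrim II, so both treated groups were clear of DMSO.

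KNL1 (NCBI gene 57082, hg38 chromosome 15 from 40594020 to 40664342) is the scaffold that the checkpoint kinase TTK phosphorylates and that BUB1 and BUB3 bind. Its level was 89.8, 90.99 and 88.7 CPM in DMSO, 60.2, 67.3 and 61.9 CPM with Fucotrim I, 38.9 and 31.6 CPM with Fucotrim II, 77.04, 76.1 and 82.1 CPM with SGN-2FF and 76.2, 73.9 and 65.97 CPM with P-SiaFNEtoc. No treated library overlapped DMSO. KNL1 fell with all 4 inhibitors, with log2 fold changes of -0.50 ± 0.06, -1.36 ± 0.09, -0.19 ± 0.05 and -0.31 ± 0.05 (standard error) and edgeR adjusted p-values of 1.05e-06, 1.01e-05, 0.00620 and 6.05e-05. The call with SGN-2FF was lost without SGN-2FF replicate 2 (adjusted p = 0.0618 in edgeR). ZWINT, its partner and the member with the highest level per kilobase of exon in DMSO (93.5 CPM per kb, against a median of 16.1), was at 226, 221 and 220 CPM in DMSO, 170, 183 and 175 CPM with Fucotrim I, 145 and 137 CPM with Fucotrim II, 199, 210 and 207 CPM with SGN-2FF and 187, 194 and 200 CPM with P-SiaFNEtoc. Every treated library lay below every DMSO library. ZWINT had log2 fold changes of -0.34, -0.66, -0.10 and -0.20, and that with SGN-2FF narrowly missed the threshold (edgeR adjusted p = 0.0557).

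The SKA complex keeps hold of shrinking microtubule ends. SKA3 was at 48.2, 49.4 and 47.4 CPM in DMSO, 35.1, 36.5 and 36.4 CPM with Fucotrim I, 31.2 and 29.01 CPM with Fucotrim II, 46.3, 44.6 and 42.4 CPM with SGN-2FF and 41.7, 37.5 and 39.2 CPM with P-SiaFNEtoc, and no treated library reached DMSO. Its log2 fold changes were -0.42, -0.69, -0.11 and -0.29, all called except that with SGN-2FF (edgeR adjusted p = 0.171). SKA2 was lower with Fucotrim I (-0.39) and Fucotrim II (-0.49), from 73.2, 80.5 and 79.9 CPM in DMSO to 57.2, 63.6 and 57.3 and 56.2 and 55.1 CPM, and these groups did not overlap. SKA1 was listed at 0 counts in 13 of the 14 libraries and at 1 count in an SGN-2FF library, and was not tested.

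Of the 9 checkpoint genes, 7 were lower with Fucotrim I, 7 with Fucotrim II, 5 with SGN-2FF and 5 with P-SiaFNEtoc, with median log2 fold changes of -0.42, -0.75, -0.16 and -0.15. The lower shares were 77.8%, 77.8%, 55.6% and 55.6%, against 22.1%, 25.7%, 9.08% and 7.33% of all genes tested. The checkpoint genes include the kinases BUB1 and TTK, the adaptor and inhibitor proteins BUB1B, BUB3, MAD1L1 and MAD2L1, and the RZZ complex of ZWILCH, ZW10 and KNTC1, which brings MAD1L1 and MAD2L1 and dynein to the kinetochore.

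BUB1 (NCBI gene 699, hg38 chromosome 2 from 110637528 to 110678063), the kinase that marks centromeric histone H2A and recruits the shugoshins, was at 99.1, 95.4 and 96.9 CPM in DMSO, 63.04, 65.99 and 60.8 CPM with Fucotrim I, 35.9 and 36.6 CPM with Fucotrim II, 78.8, 77.3 and 83.3 CPM with SGN-2FF and 79.4, 75.5 and 83.3 CPM with P-SiaFNEtoc. The treated libraries were below DMSO without overlap for every inhibitor. The mean fell from 97.1 ± 1.82 CPM (SD, n = 3) to 36.3 ± 0.484 CPM (SD, n = 2) with Fucotrim II. The log2 fold changes were -0.61 ± 0.06, -1.43 ± 0.07, -0.27 ± 0.05 and -0.29 ± 0.05 (standard error), with edgeR adjusted p-values of 4.32e-08, 3.03e-06, 0.000133 and 5.88e-05. BUB1 and CENPT were the members whose calls with SGN-2FF held under every alternative that was run. TTK, the kinase that starts checkpoint signalling, was lower with Fucotrim I (-0.53), Fucotrim II (-1.06) and P-SiaFNEtoc (-0.27), and had -0.16 with SGN-2FF (edgeR adjusted p = 0.0723). It was at 51.3, 54.3 and 53.6 CPM in DMSO and 24.8 and 26.1 CPM with Fucotrim II, well apart.

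BUB1B (BubR1), a part of the mitotic checkpoint complex that inhibits the anaphase-promoting complex, was at 142, 141 and 131 CPM in DMSO, 94.1, 110 and 99.5 CPM with Fucotrim I, 71.03 and 63.7 CPM with Fucotrim II, 121, 125 and 126 CPM with SGN-2FF and 122, 124 and 127 CPM with P-SiaFNEtoc. Its treated libraries were all below DMSO, and it fell with each inhibitor, with log2 fold changes of -0.44, -1.04, -0.14 and -0.15. The call with SGN-2FF was lost without DMSO replicates 1 or 2 or SGN-2FF replicates 1 or 2 (edgeR adjusted p up to 0.102), and that with P-SiaFNEtoc without DMSO replicate 1 or P-SiaFNEtoc replicates 1 or 2 (up to 0.0658). PAK6 and the readthrough gene BUB1B-PAK6 share 10.2% of its exon bases on the same strand. MAD2L1, the protein that closes around CDC20 when the checkpoint is active, was lower with Fucotrim I (-0.42), Fucotrim II (-0.92) and SGN-2FF (-0.18), where the call was lost without SGN-2FF replicate 2 (edgeR adjusted p = 0.0879). With P-SiaFNEtoc it was at -0.14 and just missed the threshold (edgeR adjusted p = 0.0532). BUB3, which carries BUB1 and BUB1B to KNL1, was lower with Fucotrim I (-0.15) and Fucotrim II (-0.31), and the former call was lost without DMSO replicates 2 or 3 or Fucotrim I replicate 3 (up to 0.104). With the title numbers as a replicate block, the latter call was lost as well (edgeR adjusted p = 0.0621). MAD1L1, the platform on which MAD2L1 is converted, was at 51.7, 46.2 and 45.7 CPM in DMSO, 52.1, 43.5 and 46.9 CPM with Fucotrim I, 44.8 and 59.1 CPM with Fucotrim II, 46.2, 46.5 and 43.5 CPM with SGN-2FF and 47.1, 49.1 and 50.03 CPM with P-SiaFNEtoc. These groups overlapped for each inhibitor, and its log2 fold changes of -0.01, 0.11, -0.06 and 0.03 were not called. Of its exon bases, 43.2% are shared with an unnamed gene on the same strand.

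ZWILCH was lower with all 4 inhibitors. It was at 85.5, 88.7 and 84.6 CPM in DMSO, 60.6, 64.8 and 61.8 CPM with Fucotrim I, 53.2 and 49.7 CPM with Fucotrim II, 68.9, 70.8 and 82.7 CPM with SGN-2FF and 73.8, 73.97 and 73.8 CPM with P-SiaFNEtoc. No treated library overlapped DMSO, and the third SGN-2FF library came closest. ZWILCH had log2 fold changes of -0.46, -0.75, -0.21 and -0.22, and the call with SGN-2FF was lost without SGN-2FF replicates 1 or 2 (edgeR adjusted p up to 0.0980). LCTL and RPL4 overlap 10.9% of its exon bases on the opposite strand. ZW10 was lower with Fucotrim I (-0.32), Fucotrim II (-0.53) and SGN-2FF (-0.21, lost without SGN-2FF replicate 2 at an edgeR adjusted p of 0.0586). KNTC1, the largest RZZ subunit, was at 158, 176 and 168 CPM in DMSO, 145, 173 and 157 CPM with Fucotrim I, 167 and 127 CPM with Fucotrim II, 155, 175 and 175 CPM with SGN-2FF and 152, 149 and 136 CPM with P-SiaFNEtoc. Its Fucotrim II libraries were far apart and overlapped DMSO, and it was called with P-SiaFNEtoc (-0.20, edgeR adjusted p = 0.00428), with -0.07, -0.19 and 0.02 for Fucotrim I, Fucotrim II and SGN-2FF. The call was lost when all 14 libraries were fitted together (edgeR adjusted p = 0.188).

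**Figure D3:**
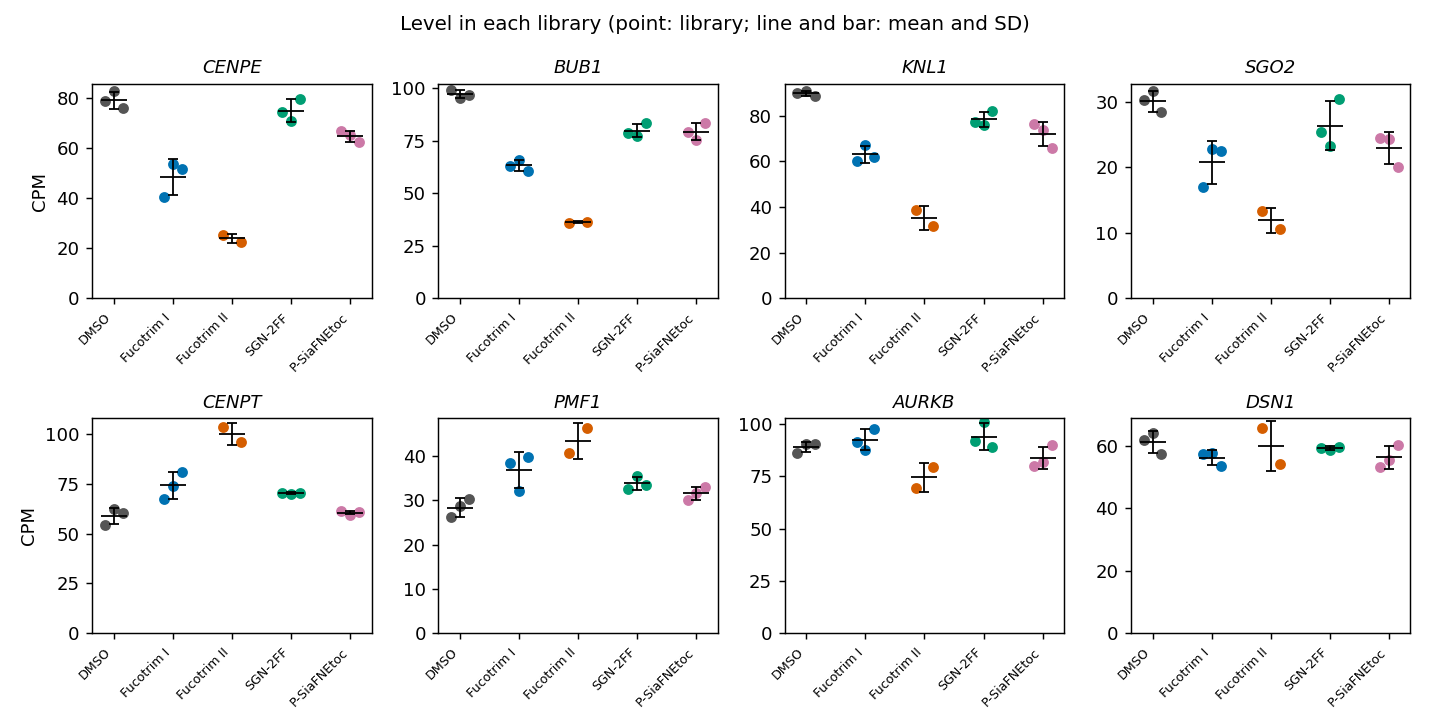
CPM (vertical axes, from 0) of 8 genes in each library by treatment, with the mean and SD as a line and bar (n = 3, and n = 2 for Fucotrim II). CENPE, BUB1, KNL1 and SGO2 are lowest with Fucotrim II, where BUB1 is at 36.3 CPM on average, CENPT and PMF1 are highest there, AURKB is below DMSO there, and the DSN1 groups all overlap DMSO.

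Counted over inhibitors, 8 members were lower with all 4 (KNL1, ZWILCH, BUB1, BUB1B, CDCA8, BIRC5, CENPL and CENPH), as were 2.6% of the 14019 genes tested with each of them. A further 15 members were lower with 3 inhibitors, 5 with 2, and 7 with 1. The remaining 8 were never called lower, and they are CENPM, CENPT, PMF1, DSN1, SPC24, MAD1L1 and the untested SPC25 and SKA1. The 4 comparisons share their DMSO libraries, so these counts are not independent of each other.

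**Figure D4:**
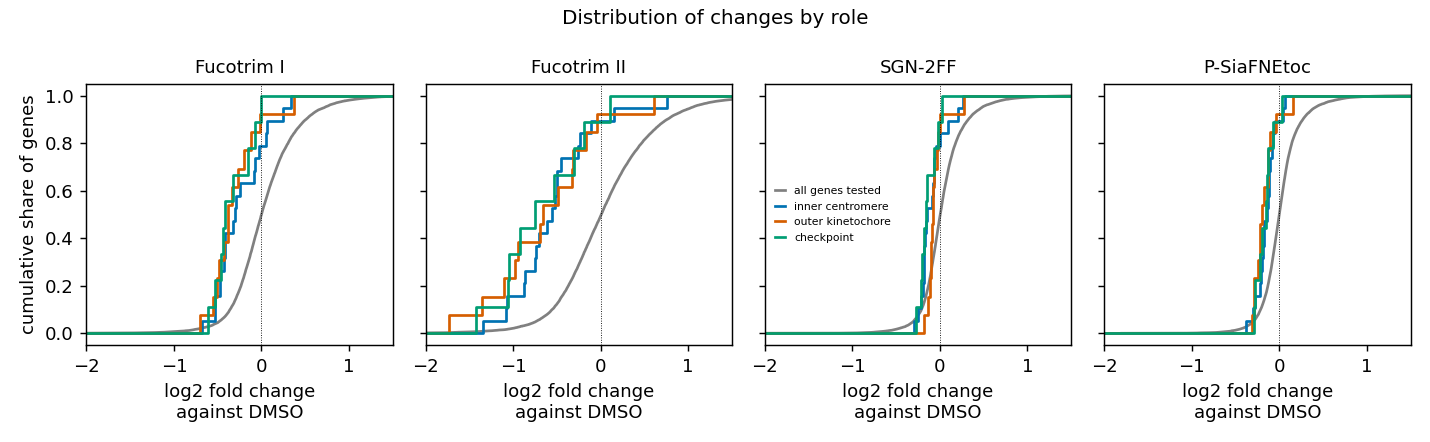
Cumulative share of genes (vertical axis) up to each log2 fold change against DMSO (horizontal axis) for the inner centromere, outer kinetochore and checkpoint genes and for all genes tested, with 1 panel per inhibitor. The curves of the 3 roles lie left of that of all genes over most of each panel, with medians of -0.55, -0.66 and -0.75 under Fucotrim II.

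Set beside the promoters, the members with a CHR had a median log2 fold change of -0.81 with Fucotrim II (16 tested, 15 lower) and those without it -0.32 (17 tested, 11 lower). With Fucotrim I the medians were -0.36 and -0.28 (13 and 10 lower), with SGN-2FF -0.14 and -0.07 (7 and 1 lower) and with P-SiaFNEtoc -0.18 and -0.12 (9 and 6 lower). The members with a CCAAT box did not lie lower in this way under Fucotrim II, with a median of -0.54 (22 tested) against -0.69 (11 tested) without it. No test was made on these groups. CENPE, which fell most, had neither of these letters in its window, and CENPN, which was not called with Fucotrim II, had both. Other spellings of the CHR were not searched, so a member without these letters is not shown to lack the element.

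The pathway around these genes was followed with 32 others, covering CENPA deposition, other centromere proteins, checkpoint silencing, the anaphase-promoting complex with its targets, and other mitotic kinases. Of these, 13 were lower and 2 higher with Fucotrim I, 19 lower and 3 higher with Fucotrim II, 5 lower with SGN-2FF and 7 lower with P-SiaFNEtoc, with medians of -0.14, -0.54, -0.05 and -0.07. The lower shares were 40.6%, 59.4%, 15.6% and 21.9% in the same order, against 22.1%, 25.7%, 9.08% and 7.33% of all genes tested. All 5 genes of CENPA deposition were lower with Fucotrim II, and CENPA, the centromeric histone H3 itself, had log2 fold changes of -0.42, -1.45, -0.22 and -0.39 in the order Fucotrim I, Fucotrim II, SGN-2FF and P-SiaFNEtoc, all called. It was at 24.9, 22.1 and 23.4 CPM in DMSO and 9.74 and 7.47 CPM with Fucotrim II. The other mitotic kinases AURKA, PLK1 and HASPIN were all lower with both Fucotrim inhibitors. HASPIN, which marks histone H3 for the chromosomal passenger complex, had the largest fall of the list with Fucotrim I (-0.61), and OIP5, a subunit of the CENPA loading machinery, with SGN-2FF (-0.28). On the opposite strand, genes that include OIP5-AS1 and NUSAP1 overlap 92.5% of the exon bases of OIP5, and ITGAE overlaps 15.3% of those of HASPIN. With the strand setting of the counting not given, the counts of OIP5 are uncertain. CDC20, the activator that the checkpoint sequesters, was lower with Fucotrim I (-0.41) and Fucotrim II (-1.17) and had -0.05 and -0.07 with SGN-2FF and P-SiaFNEtoc. CENPX, a histone fold partner in the centromere network, and ANAPC2, the cullin of the anaphase-promoting complex, were higher with Fucotrim I (0.50 and 0.36) and Fucotrim II (0.55 and 0.41), and ANAPC13, a small subunit, with Fucotrim II (0.24). Of the anaphase-promoting complex and its targets, 8 of 17 were lower and 2 higher with Fucotrim II, and 5 were lower and 1 higher with Fucotrim I. These lower shares are 47.1% with Fucotrim II and 29.4% with Fucotrim I, against 25.7% and 22.1% of all genes tested. The share with Fucotrim I is near that of all genes, and the median of the 17 there was -0.045.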

How the data were processed

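RNA-seq was measured in 14 libraries of CWR22Rv1 cells. Per the study's methods and the submitters' processing notes, the authors prepared stranded mRNA libraries, sequenced single reads, used FastQC, Cutadapt and HISAT2 (hg38) for quality checks, trimming and mapping, and obtained gene counts by featureCounts, all within Galaxy. Raw counts were deposited by the authors without normalization, in 4 tables, each with the same DMSO libraries. The annotation release, the strand setting and the treatment of multi-mapping reads are not given in the sources used here. The SGN-2FF table lists gene numbers alone, which were paired with symbols through the other tables. The 550 numbers without a symbol there were not used.

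R 4.3.3 was used, with the packages edgeR (4.0.16), DESeq2 (1.42.0) and limma (3.58.1). Each inhibitor was fitted with DMSO alone, after filterByExpr (minimum count 10, minimum total 15) and TMM scaling, by the robust quasi-likelihood test with Benjamini-Hochberg adjustment over all genes tested, at a threshold of 0.05. The study's own fold threshold of 0.58 (log2) was used for counts where named. Standard errors come from the fold change and its F statistic. CPM values are on a common TMM scale over all 14 libraries, and for the members the log2 ratio of these values differed from the fitted fold change by at most 0.029. Each CPM comes from a library of at least 12553094 counts. In simulated counts with 200 genes changed, among 14077, 14457, 14189 and 14161 genes for Fucotrim I, Fucotrim II, SGN-2FF and P-SiaFNEtoc, the test called 92.9%, 88.9%, 96.0% and 92.0% of changes of 1 (log2) and 76.0%, 59.8%, 76.0% and 73.0% of changes of 0.5, and 8.7%, 4.6%, 4.5% and 4.6% of its calls were false. In the data far more genes were called, with 1045 (P-SiaFNEtoc) to 3763 (Fucotrim II) lower ones alone. These rates therefore describe the simulated setting and may differ in the comparisons here. All pairs of libraries of a group differed in their counts by more than sampling noise, so no library was taken as a copy of another. That check cannot tell biological from technical replicates. Each library was counted as 1 replicate, as labelled. P-values set each change against the spread between these libraries, which the fit moderates across all genes tested.

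The members, gene lists, motifs and naming rule were chosen with earlier results of these data known, so their direction is no independent support. Some genes of the luminal marker list are not reported here, and its counts leave them out. The naming rule took the members with the largest and smallest changes per complex under Fucotrim II, the members called higher with any inhibitor and those called lower with all 4. Positions and exon overlaps come from GENCODE release 44 on hg38 and promoters from RefSeq (GRCh38.p14). The alternatives were limma-voom, the DESeq2 test, size factors of DESeq2 in edgeR, omission of the low-count filter, a minimum of 10 counts in every library, an adjusted p-value under 0.01, 37 mitochondrial genes left out, a fit of all 14 libraries together, the replicate number as a block, and each library left out in turn. Figures were drawn with matplotlib 3.10.9 in Python 3.11.15.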

Additional observations from a re-analysis of the deposited data

How the results depend on the processing

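No called member changed direction under any alternative. Calls held under every alternative for 28 of the 32 members called with Fucotrim I, 29 of 34 with Fucotrim II, 11 of 21 with P-SiaFNEtoc and 2 of 15 with SGN-2FF. The median with Fucotrim II was -0.62 without a filter on low counts, -0.61 with at least 10 counts in every library, -0.61 without mitochondrial genes and -0.65 with the library name numbers as a replicate block, and ranged from -0.65 to -0.61 with each library left out. In the fit of all 14 libraries, 6 members were lower with SGN-2FF and 12 with P-SiaFNEtoc. That fit lost the calls of CENPP with Fucotrim I, of BIRC5, BUB1B, CDCA8, CENPM, INCENP, KNL1 and MAD2L1 with SGN-2FF, and of BIRC5, BUB1B, CDCA8, CENPK, CENPL, CENPN, KNTC1, MIS12 and NUF2 with P-SiaFNEtoc. With each library left out in turn, 3 to 14 members were lower and 1 to 3 higher with SGN-2FF, 2 to 4 were higher with Fucotrim II, and the median with P-SiaFNEtoc ranged from -0.19 to -0.14. Over the libraries left out in turn, CENPM with Fucotrim II ranged from -0.045 (without Fucotrim II replicate 2, edgeR adjusted p = 0.667) to 0.318 (without Fucotrim II replicate 1), and CENPT with P-SiaFNEtoc from -0.012 (without DMSO replicate 1, edgeR adjusted p = 0.918) to 0.0893 (without DMSO replicate 2). The cause was not tested, beyond the smaller number of libraries. An adjusted p-value under 0.01 left 25, 29, 8 and 14 lower members with Fucotrim I, Fucotrim II, SGN-2FF and P-SiaFNEtoc.

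The main fits used no pairing by replicate number, and the values that follow do not settle whether the numbers pair the samples. Same-numbered libraries had correlations of their deviations of 0.18, 0.194 and 0.0299 with Fucotrim I, between -0.116 and 0.0576 with SGN-2FF and between -0.0638 and 0.0427 with P-SiaFNEtoc. For Fucotrim II the numbers in titles and library names differ, and the correlation was -0.294 with the former and 0.238 with the latter. With the replicate block, 29, 13 and 22 members were lower with Fucotrim I, SGN-2FF and P-SiaFNEtoc, and 27 (title numbers) or 34 (library name numbers) with Fucotrim II. The title numbers as a block lost the Fucotrim II calls of AURKB, BUB3, CENPU, MIS12 and NSL1. With 2 Fucotrim II libraries, small changes there rest on few degrees of freedom, and members with few counts, such as CENPP, were measured least precisely.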
